A study of Mus musculus with 3 samples.

Results

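Taf4 and its partner genes in TFIID were examined as 10 genes chosen by name: Taf4 (written Taf4a in the annotation used here), Taf4b, Taf12, Taf6, Taf9, Taf5, Taf10, Taf3, Taf2 and Tbp. They were 10 of the 22359 protein-coding genes with an annotated start. Their chromatin was read from ATAC-seq, in which a transposase inserts sequencing adapters where DNA is accessible, so that piled-up insertions give peaks of open chromatin. Libraries came from cells of isolated mouse islets of Langerhans, the endocrine clusters of the pancreas, with the strain label C5LBl6. Of the 3 libraries, 1 was of wild-type (WT) islets, 1 of Taf4 KO islets at 1 week and 1 of Taf4 KO islets at 5 weeks. As the study describes, adult mice with floxed Taf4 alleles carried a Tamoxifen-inducible Cre recombinase driven by the Ins1 promoter. Times were counted from Tamoxifen. Control mice of the study were also given Tamoxifen and carried the same Cre with Taf4+/+ alleles. The label of the WT library does not state Cre or Tamoxifen. The Ins1 driver is meant for beta cells, and which islet cells kept Taf4 cannot be read from these libraries. Each group had 1 library and no replicate, so no test could be made and every difference below is a difference between libraries.

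TFIID is the general transcription factor that recognises core promoters and helps to bring RNA polymerase II to them. It is built from the TATA-binding protein, encoded by Tbp, and TBP-associated factors, or TAFs, many of which meet as pairs of histone folds: Taf4 with Taf12, Taf6 with Taf9, and Taf3 with Taf10. Taf5 carries WD40 repeats and acts as a scaffold, Taf2 contacts promoter DNA near the initiator, and Taf4b is a paralog that can take the place of Taf4. Taf9, Taf10 and Taf12 are shared with SAGA, a histone acetyltransferase co-activator complex. Genes of this kind are used by nearly all cells, and their starts are commonly open.

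Values in threes are given below in the order WT, Taf4 KO at 1 week and Taf4 KO at 5 weeks. The lists held 60898, 150354 and 151725 peaks, so the KO lists were 2.47 and 2.49 times as long. Depth was not given and appeared unequal by an indirect measure. The lowest local background, recovered from the fold and p of the peaks, was 3.66, 6.45 and 9.38 reads. A promoter peak was one that overlapped the window reaching 1000 bp before and 100 bp past any annotated start of the gene, and for each gene the strongest was used. The KO lists held more weak peaks, the median -log10 q over all peaks being 3.71, 2.08 and 2.38. Each peak carried a fold over its local background and a -log10 q, the confidence of the call. Because both depend on depth, a peak's -log10 q was also ranked within its own list, as a percentile among all peaks or among promoter peaks of that list. Chromosome X held 8.13% of the peaks at 1 week against 2.09% in WT and 0.956% at 5 weeks. None of the 10 genes lies on it. Of 6 beta cell markers, 6 had a promoter peak in WT and 5 in each KO list, where Slc2a2, a glucose transporter gene, had none. The WT peak of Slc2a2 was itself weak, with a -log10 q of 2.15. Of 3 alpha cell markers, 2 had a promoter peak in WT, and all 3 had one in each KO list, glucagon (Gcg) being the addition. Of 2 delta cell markers, 0, 1 and 2 had one in the 3 lists, and the peaks of Sst in the KO lists were weak, with a -log10 q of 1.41 and 1.33. Of 10 acinar, endothelial and immune markers, none had one in WT, 2 at 1 week (Tie1 and Ptprc) and 3 at 5 weeks (Ptf1a, Cdh5 and Tie1). Acinar Cpa1, Cela1 and Prss2, endothelial Pecam1 and immune Cd68 and Lyz2 had none in any list. Over all genes without a WT promoter peak, 13.3% had one at 1 week and 18.9% at 5 weeks. The part of these differences in the results below was not tested, and in islets studied as a whole a different mix of cells and a change within a cell type cannot be told apart.

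The promoters of Taf4, Taf9, Taf5 and Taf10 are shown because their promoter peaks were missing at 1 week or differed in rank among promoter peaks by at least 25 points, as given below. Each is the 200 bases before the first annotated start in mm9, read on the strand of the gene. They lie at chr2:179711352-179711551 on the minus strand for Taf4, chr13:101421098-101421297 on the plus strand for Taf9, chr19:47142038-47142237 on the plus strand for Taf5 and chr7:112892876-112893075 on the minus strand for Taf10. None of the 4 overlaps an annotated exon. Capitals mark matches on either strand to the motifs searched, here the Sp1 box, given as GGGCGG in the forward sense, and the CCAAT box.
Taf4: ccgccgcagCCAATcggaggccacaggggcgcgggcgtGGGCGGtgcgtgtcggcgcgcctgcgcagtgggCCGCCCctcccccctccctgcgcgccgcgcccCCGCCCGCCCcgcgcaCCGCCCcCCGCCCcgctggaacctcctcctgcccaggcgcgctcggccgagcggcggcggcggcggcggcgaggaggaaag
Taf9: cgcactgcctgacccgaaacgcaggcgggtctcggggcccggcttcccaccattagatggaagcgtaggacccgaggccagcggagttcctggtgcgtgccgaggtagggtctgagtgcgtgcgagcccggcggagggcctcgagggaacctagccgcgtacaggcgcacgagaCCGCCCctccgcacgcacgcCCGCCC
Taf5: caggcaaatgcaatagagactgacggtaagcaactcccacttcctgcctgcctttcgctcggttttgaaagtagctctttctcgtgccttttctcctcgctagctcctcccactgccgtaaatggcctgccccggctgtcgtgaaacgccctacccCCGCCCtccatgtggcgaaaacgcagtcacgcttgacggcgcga
Taf10: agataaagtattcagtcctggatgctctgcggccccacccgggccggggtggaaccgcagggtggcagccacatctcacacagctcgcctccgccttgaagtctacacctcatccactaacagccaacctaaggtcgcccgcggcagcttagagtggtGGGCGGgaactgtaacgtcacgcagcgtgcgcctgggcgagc

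The GC content of these stretches was 84% for Taf4, 71.5% for Taf9, 58% for Taf5 and 63% for Taf10. Taf4 held 6 matches to GGGCGG, 5 of them as the reverse complement, of which the pair at -97 and -93 overlap, and 1 to CCAAT at -191, counted back from the start. Taf9 held 2 Sp1 boxes, at -26 and -6, and Taf5 and Taf10 held 1 each, at -44 and -42. Over the 10 genes, 8 held GGGCGG in this stretch, against 38.5% of all 22359 first starts. CCGGAAG, the core bound by ETS factors, was found for Taf12, Taf3 and Taf2, against 7.67% of all starts. GCATGCGC, the NRF1 site, was found for Taf6 alone (2.59% of all starts). TATAAA, the TATA box, was found for Taf4b alone (10.04%), and CCAAT for Taf4 and Taf4b (30.6%). AAGATGGC, a YY1 site (1.32%), and GTCACGTG, an E box (1.959%), were found in none of the 10. By the number of CpG dinucleotides in the promoter window, Taf4 stood at the 97.7 percentile of all genes, Taf9 at 93.3 and Taf4b at 85.9, and Taf6 was the lowest of the 10 at 44.5. A match of letters is a description of the sequence and no evidence of binding.

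In WT islets all 10 genes had a promoter peak, against 59.0% of all protein-coding genes. At 1 week 8 of the 10 had one, against 55.9% of all genes, and Taf5 and Taf9 did not. At 5 weeks all 10 had one again, against 65.6% of all genes. Over all genes, 14.5% of those open in WT lacked a promoter peak at 1 week and 1.89% at 5 weeks, beside 2 and 0 of the 10. The number at 1 week depended on how weak a peak was accepted. With peaks kept at a -log10 q of at least 3 or at least 5, with lists of equal number, or with the KO lists scaled to the WT background, Taf4 and Taf6 also lacked a promoter peak at 1 week, leaving 6 of 10. The WT and 5 week lists had 10 of 10 under each of these settings. Over all genes the share at 1 week was also lower, at 44.9%, 33.5%, 48.8% and 49.1% under these settings in that order. In WT it was 53.8%, 48.6%, 59.0% and 59.0%, and at 5 weeks 59.0%, 54.4%, 59.0% and 57.1%.

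**Figure D1:**
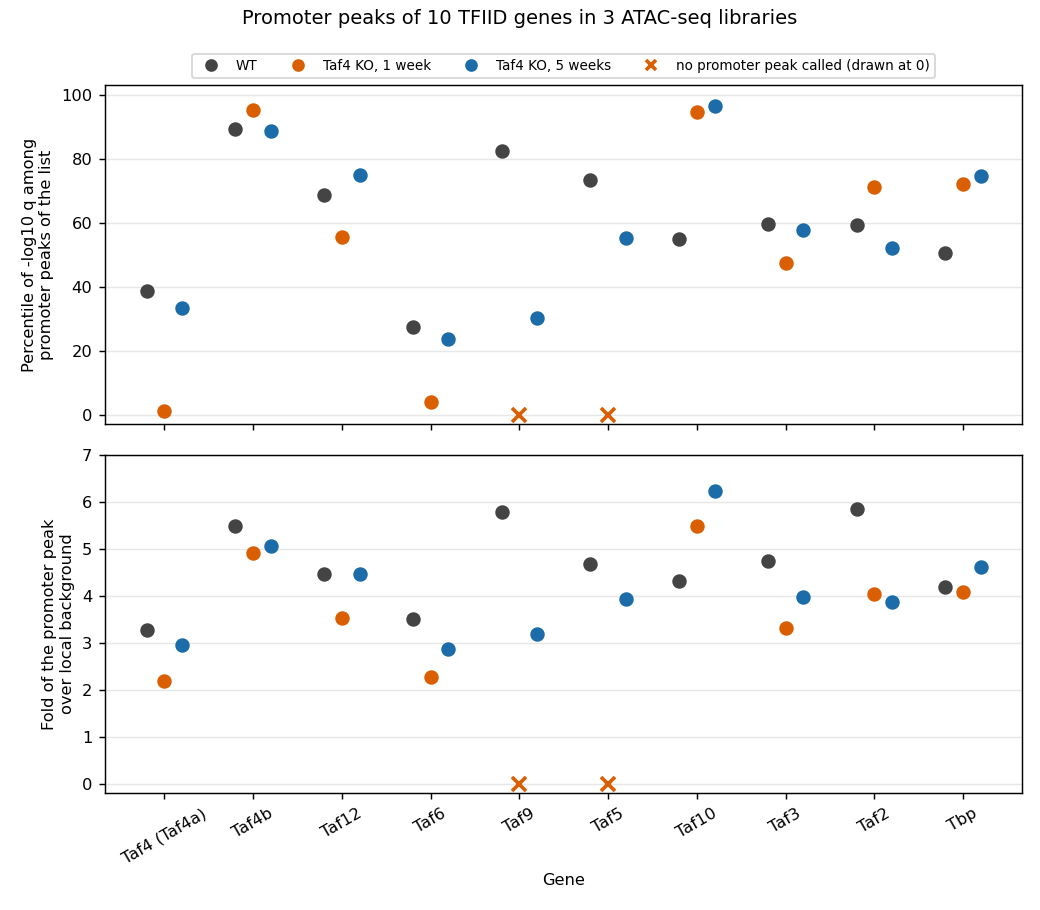
Promoter peaks of the 10 genes in the 3 libraries. The upper panel gives the percentile of -log10 q among the promoter peaks of the same list, the lower panel the fold over local background, each point being 1 library and a cross a gene with no promoter peak at 1 week. Taf4 and Taf6 sit lowest at 1 week (1.19 and 3.81), whereas Taf10 sits above 94 in both KO lists after 54.7 in WT.

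Both KO libraries are set against the same WT library, so the 1 week and 5 week differences are not independent. Over all genes the median -log10 q of promoter peaks was 12.0, 6.12 and 12.9, and over the genes called here 13.0, 7.60 and 13.3, so lower values at 1 week were general. Over the 10 genes the fold of the promoter peak ran from 3.28 to 5.85 in WT (median 4.57), from 2.17 to 5.49 over the 8 genes called at 1 week (median 3.78) and from 2.86 to 6.23 at 5 weeks (median 3.95). At 1 week 7 of the 8 had a lower fold than in WT and 1, Taf10, a higher one, a direction found for 16.7% of all genes with a peak in both lists. At 5 weeks 8 of 10 had a lower fold and 2, Taf10 and Tbp, a higher one (23.4% of all genes). The median ratio of fold to WT was 0.745 at 1 week and 0.868 at 5 weeks for these genes, beside 0.813 and 0.903 over all genes. A fold at least 1.5 times lower was found for 2 of 8 at 1 week (21.5% of all genes) and 2 of 10 at 5 weeks (3.99%), and none was 1.5 times higher (0.399% and 0.239%). Among promoter peaks, 4 of 8 genes ranked lower than in WT at 1 week (49.6% of all genes) and 7 of 10 at 5 weeks (38.7%). A rank at least 25 points lower was found for 1 of 8 at 1 week, Taf4 (18.6% of all genes), and for 1 of 10 at 5 weeks, Taf9 (3.55%), and Taf10 alone ranked at least 25 points higher each time (15.5% and 9.78%). Among all peaks of a list, 2 of 8 ranked at least 25 points lower at 1 week, Taf4 and Taf6 (5.01%), and 0 of 10 at 5 weeks (0.131%), while none ranked 25 points higher (9.90% and 11.8%). Peaks were narrower than in WT for 7 of 8 at 1 week (65.3% of all genes) and for 5 of 10 at 5 weeks (37.8%). Their median width was 984, 492 and 756 bp.

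**Figure D2:**
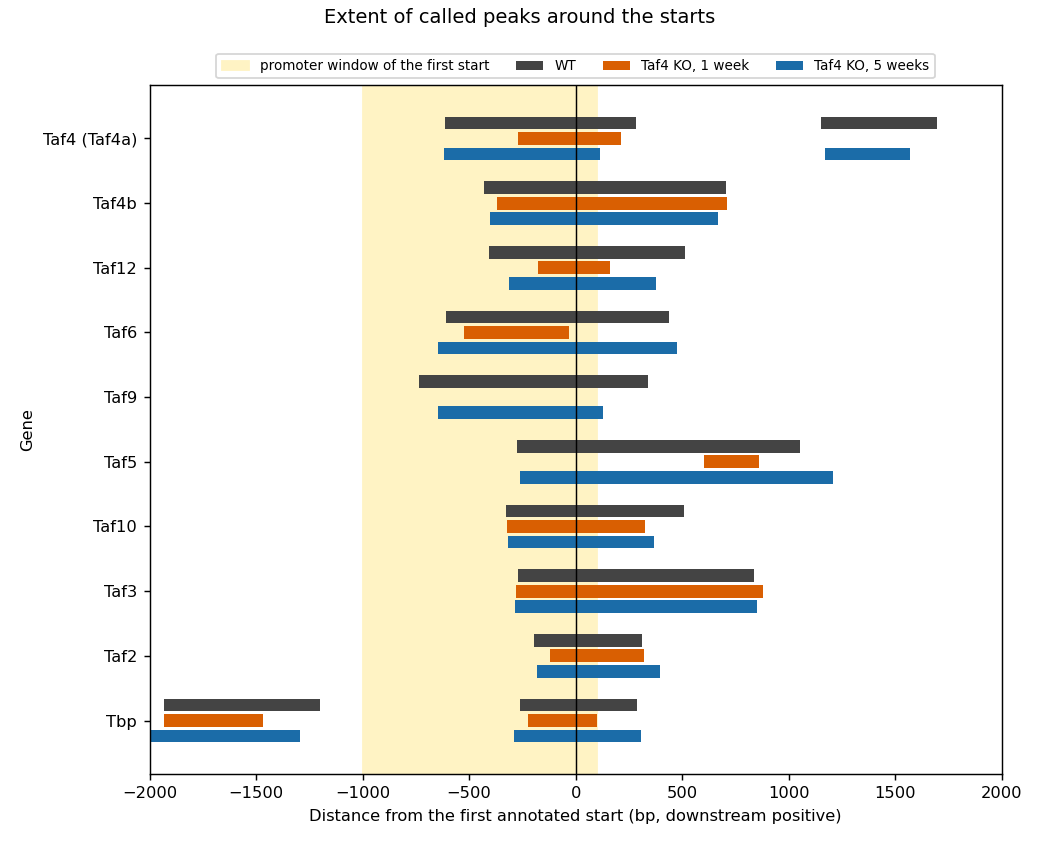
Extent of called peaks around the first annotated start of each gene, in bp with downstream positive, for WT, 1 week and 5 weeks; the shaded band is the promoter window of that start. At 1 week the Taf12 peak is 342 bp wide against 919 bp in WT, the Taf6 peak ends upstream of the start, at -30 bp, the Taf5 peak begins 601 bp downstream and Taf9 has none.

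Taf4 itself, the inactivated gene (ENSMUSG00000039117, chr2:179646851-179711351, minus strand), still had a promoter peak in all 3 lists. Accessibility of the start does not report on a floxed exon, so this peak is no check of the labels. The -log10 q of the peak was 8.53, 1.32 and 8.01, and its fold 3.28, 2.17 and 2.94. At 1 week it was thus barely over the threshold of the caller, in the 9.15 percentile of all peaks against 76.2 in WT and 81.1 at 5 weeks. Among promoter peaks it stood at 38.6, 1.19 and 33.4. Counted from the start, the WT peak spanned -612 to 284 bp, the 1 week peak -271 to 215 bp and the 5 week peak -617 to 114 bp. Its difference of -37.4 points was at the 10.5 percentile of the 11287 genes with a promoter peak in both lists. A second peak, 1151 to 1698 bp downstream and reaching into the window of another annotated start of Taf4, had a -log10 q of 5.83 in WT and 4.49 at 5 weeks and was not called at 1 week.

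Inside Taf4 the peaks differed in another way. A region in an intron, 27782 to 29184 bp downstream of the start, had a -log10 q of 3.65, 12.8 and 9.97. Its fold was 2.90, 4.57 and 3.29, and its percentile among all peaks 49.3, 97.0 and 85.1, so that it was the strongest peak of the locus at 1 week by -log10 q. At the other end of the gene, a region over an exon 62517 to 63849 bp downstream had a -log10 q of 13.9, 7.84 and 19.3, and percentiles of 88.5, 91.5 and 95.5. A nearby intron region at 59017 to 59713 bp had a -log10 q of 2.37, 3.01 and 10.4, and one past the end of the gene, at 68703 to 69895 bp, 1.56, 2.59 and 8.18. The 1 week list held none of the 3 weaker intron regions found between 15496 and 51584 bp in one or both of the other lists. The exon region thus had a lower -log10 q at 1 week than in WT, and its higher percentile there is among a list with more weak peaks. The intron region at 27782 bp had a higher -log10 q and fold as well as a higher percentile.

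**Figure D3:**
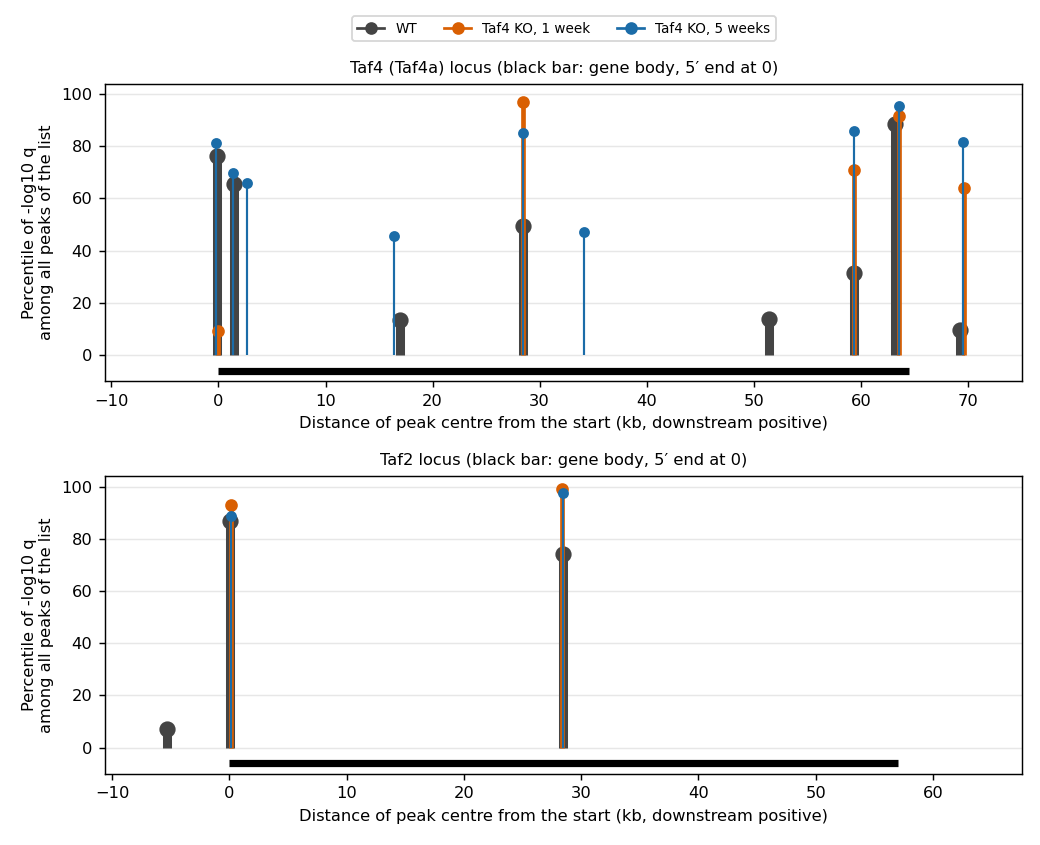
Peaks over the Taf4 and Taf2 loci, by distance of the peak centre from the start in kb (downstream positive) and by percentile of -log10 q among all peaks of the list. Lines rise from 0 to each peak of WT, 1 week and 5 weeks, and the black bar is the gene. In both genes an intron peak about 28 kb from the start stands higher in the KO lists (97.0 and 85.1 for Taf4, 99.3 and 97.7 for Taf2) than in WT (49.3 and 74.3). Both were picked out by their values, and the share of all peaks that differ as much was not computed.

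Taf2 (ENSMUSG00000037343, chr15:54846684-54903707, minus strand) also had an intron peak, 28114 to 28706 bp downstream of its start. Its -log10 q was 7.94, 19.5 and 23.9, its fold 4.65, 5.79 and 5.41, and its percentile among all peaks 74.3, 99.3 and 97.7. In both KO lists this intron peak had a higher -log10 q than the promoter of Taf2, whose peak had 12.9, 8.77 and 12.3. The fold of the promoter peak was 5.85, 4.03 and 3.86, at least 1.5 times lower only at 5 weeks. Its percentile among promoter peaks was 59.2, 71.0 and 52.2, so fold and rank differed in direction at 1 week.

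The central 300 bases of the stretch covered in all 3 lists are given for these intron peaks of Taf4 and Taf2, since they had the highest -log10 q at 1 week of the peaks inside these genes. A choice by the 1 week value favours peaks that stand higher there than in WT. How many peaks outside promoters differ as much over the whole lists was not computed. They lie in mm9 at chr2:179682735-179683034 and chr15:54875139-54875438, both read on the minus strand, and overlap no annotated exon. Capitals mark the motifs found.
Taf4 intron: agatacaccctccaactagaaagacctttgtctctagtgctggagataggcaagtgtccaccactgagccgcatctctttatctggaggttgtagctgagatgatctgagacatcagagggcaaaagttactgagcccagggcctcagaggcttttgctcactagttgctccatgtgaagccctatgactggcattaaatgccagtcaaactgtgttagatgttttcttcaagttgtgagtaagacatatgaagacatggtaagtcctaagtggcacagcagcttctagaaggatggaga
Taf2 intron: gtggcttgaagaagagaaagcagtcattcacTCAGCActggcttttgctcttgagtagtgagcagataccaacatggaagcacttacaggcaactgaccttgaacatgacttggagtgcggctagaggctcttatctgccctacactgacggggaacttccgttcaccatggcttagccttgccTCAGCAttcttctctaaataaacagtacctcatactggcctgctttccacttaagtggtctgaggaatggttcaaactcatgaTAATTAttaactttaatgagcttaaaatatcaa

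These were searched on both strands for 7 short motifs of factors known in islet enhancers, chosen after the values were seen, each with its share of 47987 WT peaks outside promoters taken at the same length. The motifs were TGTTTAC of forkhead factors (8.02%), TGANTCA of AP-1 (13.8%), CAGATG of Neurod1 (30.2%), TAATTA of homeodomain factors (7.27%), GTTGCCA of RFX factors (5.38%), AGGGGGC of CTCF (5.42%) and TGCTGA, a core of MAF sites (29.2%). The Taf4 intron held none of these letters. The Taf2 intron held TAATTA once, at base 268, and TGCTGA on the other strand (TCAGCA as printed) at bases 32 and 185. The matches do not overlap each other.

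Taf12, the histone-fold partner of Taf4 (ENSMUSG00000028899, chr4:131830290-131851681, plus strand), had a promoter peak in all lists. Its -log10 q was 15.4, 6.43 and 18.5, with a fold of 4.47, 3.53 and 4.45. Among promoter peaks it stood at 68.7, 55.4 and 75.0. The 1 week peak was the narrow one, with 342 bp against 919 bp in WT and 693 bp at 5 weeks. An upstream region, from -4587 to -3712 bp, was called in WT (-log10 q of 3.69) and at 5 weeks (8.74) and not at 1 week.

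Taf4b (ENSMUSG00000054321, chr18:14941754-15058868, plus strand), the paralog that can stand in for Taf4, had the highest -log10 q of the 10 WT promoter peaks and no difference in rank of 25 points or more. Its -log10 q was 23.3, 18.5 and 24.5, its fold 5.48, 4.89 and 5.06, and its width 1140, 1083 and 1071 bp. Among promoter peaks it stood at 89.4, 95.3 and 88.6. Away from the start no other peak was called in WT, and 7 regions were called in 1 or both of the longer KO lists. The strongest of these, from -9368 to -9064 bp, was found in both KO lists with a -log10 q of 4.02 and 4.92. The other 6 were each found in 1 KO list, with a -log10 q of 1.48 to 3.32. Regions found in KO lists alone were common over all peaks, as given below.

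Taf9, which pairs with Taf6 and also serves SAGA, had the largest difference in rank of the 10 at 5 weeks. It lies at chr13:101421298-101436368 on the plus strand and is entered in the annotation as 2 gene models with the same start (ENSMUSG00000052293 and ENSMUSG00000078941). The promoter peak had a -log10 q of 19.9 and a fold of 5.78 in WT, no call at 1 week, and a -log10 q of 7.27 and a fold of 3.17 at 5 weeks. The 5 week peak was narrower, 780 against 1073 bp, and ended 131 bp downstream of the start against 338 bp in WT. Its percentile among promoter peaks was 82.3 in WT and 30.3 at 5 weeks, a difference of -52.0 points. Of 12948 genes with a peak in both lists, 10 had a difference as low, and 3 of those 10 entries share this very peak. At 1 week, 66 of the 2659 genes whose WT promoter peak had a -log10 q at least as high had no promoter peak (2.48%). The peak also covers the divergent start of Rad17, a checkpoint clamp loader gene, 284 bp away, so accessibility of the 2 starts cannot be separated. An intron region 5956 to 6295 bp downstream was likewise called in WT (-log10 q of 4.03) and at 5 weeks (2.39) and not at 1 week. The start of the neighbour Ccdc125 remained called, with a -log10 q of 6.32, 1.45 and 5.02. Within the 1 Mb around the Taf9 start, 15 of 28 WT peaks (53.6%) overlapped a peak at 1 week and 20 of 28 (71.4%) at 5 weeks. Over all WT peaks the shares were 61.9% and 79.5%. Around the starts of the 10 genes the 1 week share ran from 40.3% (Taf12) to 85.7% (Taf3), with 45.5% for Taf4. At 5 weeks it ran from 69.1% (Taf4) to 88.5% (Taf5).

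Taf6, the partner of Taf9 (ENSMUSG00000036980, chr5:138619845-138628679, minus strand), had the lowest -log10 q of the 10 WT promoter peaks. Its -log10 q was 6.16, 1.53 and 5.67, with a fold of 3.51, 2.26 and 2.86. Among promoter peaks it stood at 27.4, 3.81 and 23.5. This start too is divergent, with that of Cnpy4 34 bp away. The WT and 5 week peaks covered both starts, whereas the 1 week peak spanned -525 to -30 bp from the Taf6 start and covered the Cnpy4 start alone. A divergent start of another gene within 1000 bp is found for 11.0% of all protein-coding genes and for these 2 of the 10. Neighbouring peaks also had lower values at 1 week, with a -log10 q of 21.4, 3.58 and 22.7 for the peak shared by Ap4m1 and Mcm7, while the peak at the start of Mblac1 had 13.2 in WT and 12.2 at 5 weeks. At 1 week the peak there had 2.80 and did not reach the Mblac1 promoter window.

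Taf5, the scaffold subunit (ENSMUSG00000025049, chr19:47142238-47157969, plus strand), had a WT promoter peak 1330 bp wide, from -274 to 1055 bp, with a -log10 q of 16.7 and a fold of 4.68. At 5 weeks the peak was 1471 bp wide, with a -log10 q of 13.0 and a fold of 3.92. At 1 week a peak of 263 bp, with a -log10 q of 7.39 and a fold of 3.76, was called 601 to 863 bp downstream, within the extent of the WT peak but outside the promoter window. The 1 week peak at Taf5 therefore differed from WT in position and width as well as in -log10 q and fold. It lay in the first kilobase and did not cover the start. Of the 3974 genes with a WT promoter -log10 q at least as high, 148 had no promoter peak at 1 week (3.72%). Among promoter peaks Taf5 stood at 73.4 in WT and 55.3 at 5 weeks.

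Taf10, which pairs with Taf3 and is also a SAGA subunit, differed the other way. It lies at chr7:112887907-112892875 on the minus strand (ENSMUSG00000043866). Its promoter peak had a -log10 q of 12.0, 17.6 and 32.2, and a fold of 4.32, 5.49 and 6.23. It was the only one of the 10 with a higher fold than WT in both KO lists, in peaks that were narrower (841, 648 and 682 bp). The ratio of fold to WT was 1.27 at 1 week, at the 98.0 percentile of all genes, and 1.44 at 5 weeks, at the 99.6 percentile, with 229 and 53 genes as high. Among promoter peaks it stood at 54.7, 94.5 and 96.5. The neighbouring peaks did not share one direction. The peak at the starts of Ilk and Rrp8 had a -log10 q of 10.5, 12.6 and 18.9, and that of Tpp1 had 10.9, 2.58 and 6.86.

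Taf3, the partner of Taf10 that carries a PHD finger binding methylated histone H3, is the longest of these genes (ENSMUSG00000025782, chr2:9836179-9970223, minus strand). Its promoter peak had nearly the same extent in all lists, with 1110, 1161 and 1138 bp, while the -log10 q was 13.1, 5.50 and 13.6 and the fold 4.74, 3.31 and 3.98. Among promoter peaks it stood at 59.7, 47.5 and 57.9. Far inside the gene, 121359 to 122353 bp downstream, an intron region had a -log10 q of 17.4, 9.33 and 11.9, higher than the promoter in WT and at 1 week. Of the 6 intron regions found only at 1 week over all loci, 5 lay in Taf3, with a -log10 q of 1.31 to 2.21, and 1 in Taf4b.

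Tbp, the gene of the TATA-binding protein (ENSMUSG00000014767, chr17:15636852-15665343, plus strand), had a promoter peak with a -log10 q of 11.0, 9.01 and 18.3. Its fold was 4.17, 4.08 and 4.62, and its percentile among promoter peaks 50.5, 72.1 and 74.5. The peak was 551, 327 and 597 bp wide. The peak at the start of Psmb1, a proteasome subunit gene read in the other direction just upstream, had a -log10 q of 15.9, 4.04 and 14.8, and that at the start of Pdcd2, near the 3' end of Tbp, 23.9, 17.2 and 32.2.

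Promoter peaks missing at 1 week were more common in GC-rich surroundings, so each start was also placed by the GC content of its surrounding 1 Mb. With all genes divided into 5 equal groups by this value, 2.12% of the genes open in WT lacked a 1 week promoter peak in the lowest group, and 5.39%, 8.80%, 17.8% and 29.4% in the groups above it. At 5 weeks the shares lay between 1.13% and 2.57%. Taf4 (50.1%) and Taf5 (47.6%) were in the highest group and Taf12 (46.0%) in the one below. Taf6 (43.6%), Taf3 (43.3%) and Tbp (43.1%) were in the middle group, and Taf9 (42.5%), Taf4b (42.5%), Taf10 (42.3%) and Taf2 (41.9%) in the one below that. Within its own group the 1 week difference of Taf4 lay at the 19.2 percentile. In the group of Taf5, 89 of the 850 genes with a WT -log10 q at least as high had no promoter peak at 1 week (10.5%). In the group of Taf9, 7 of 504 had none (1.39%), of which 3 entries share the Taf9 peak. At 5 weeks the difference of Taf9 stood at the 0.145 percentile of its group.

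**Figure D4:**
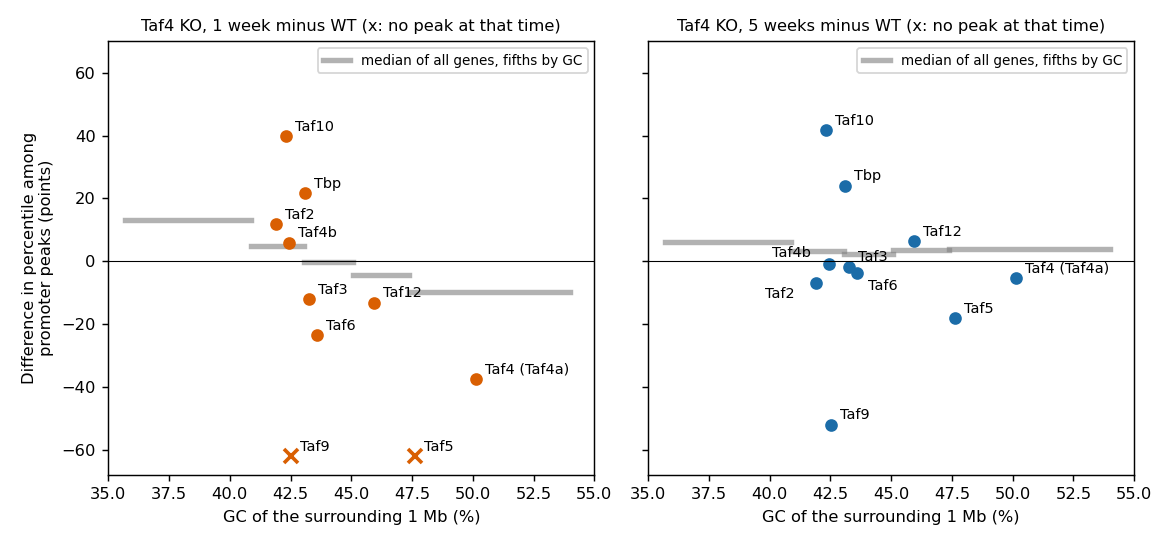
Difference in percentile among promoter peaks, each Taf4 KO list minus WT, against the GC content of the surrounding 1 Mb. Points are the 10 genes, crosses mark genes with no promoter peak at that time, and grey bars are medians of all genes in 5 groups by GC. At 1 week the grey medians run from 13.2 to -9.93 points from the lowest to the highest group, with Taf4 at -37.4, whereas at 5 weeks they lie between 2.40 and 6.14 points, with Taf9 at -52.0 and Taf10 at 41.7.

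Taking each gene body with 10 kb on either side, 667 kb in all, the 10 loci held 35, 38 and 44 peaks. These were 1.09 and 1.26 times the WT number, while the whole lists were 2.47 and 2.49 times as long. Promoter peaks at these genes numbered 12, 9 and 13, and peaks inside the genes but outside their promoters 12, 19 and 17. The direction of the latter depended on the peaks kept, with 12, 9 and 8 in lists of equal number but 4, 7 and 7 where only peaks with a -log10 q of 5 or higher were kept. Merged across lists there were 55 regions, of which 26 were found in all 3 lists, 6 in WT and 5 weeks, 1 in WT and 1 week, 3 in both KO lists, 2 in WT alone, 8 at 1 week alone and 9 at 5 weeks alone. The shares found in all 3 lists, at 1 week alone and at 5 weeks alone were 47.3%, 14.5% and 16.4% here, beside 15.7%, 30.01% and 26.2% of the 233507 regions made in the same way from all peaks. Regions in both KO lists but not in WT made up 5.45% here and 17.9% of all, and regions in WT alone 3.64% and 4.91%. Regions in WT and 5 weeks made up 10.9% and 4.88%, and regions in WT and 1 week 1.82% and 0.397%. Of the 35 WT peaks, 27 (77.1%) overlapped a peak at 1 week and 32 (91.4%) at 5 weeks, beside 61.9% and 79.5% of all WT peaks. The loci are rich in promoters, with 12 of the 35 WT peaks at promoters of these genes and 9 at those of other genes. In the whole lists promoter peaks made up 21.2%, 8.22% and 9.73%. The shares and ratios over all peaks were not matched for this, so they do not set these loci apart from other promoters.

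The other subunits of TFIID were taken as a list of 7 (Taf1, Taf7, Taf8, Taf9b, Taf11, Taf13 and Taf15). All had a promoter peak in all 3 lists, where the shares of all genes were 59.0%, 55.9% and 65.6%. Both genes of TFIIA, Gtf2a1 and Gtf2a2, did so too. At 1 week the peaks of Taf11 and Gtf2a2 were weak, with a -log10 q of 2.50 and 2.57. Both lay below the limit of 3, under which Taf4 and Taf6 also lost their 1 week peak. Of 15 SAGA subunits and TAF-like partners, 13, 11 and 14 had a promoter peak, beside 59.0%, 55.9% and 65.6% of all genes. The 2 of 13 with a WT peak and none at 1 week, Taf5l and Supt7l, are close to the 14.5% of all genes. Taf5l, the SAGA counterpart of Taf5, had a -log10 q of 17.5 in WT and 12.7 at 5 weeks and no promoter peak at 1 week. Supt7l had 7.19 and 5.70 and none at 1 week. Kat2a, the acetyltransferase of SAGA, was called at 5 weeks alone, with a -log10 q of 13.7, and Taf6l in no list. Of 3 further relatives of Tbp and Taf7, Tbpl1 was called in all lists. Tbpl2, an oocyte relative of Tbp, had weak peaks in both KO lists (-log10 q of 1.51 and 2.08), and Taf7l, a relative of Taf7 known from germ cells, had a weak one at 1 week (1.60). Taf7l, Taf1 and Taf9b lie on chromosome X, whose share of the peaks was higher at 1 week. Taf5l lies in the highest group by GC with Taf5, and Supt7l in the middle group. Taf8, Taf11, Tada2b, Sgf29, Usp22 and Atxn7l3 also lie in the highest group and had a promoter peak at 1 week. Kat2a lies there as well.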

How the data were processed

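ATAC-seq peak lists from 3 libraries (WT, Taf4 KO at 1 week, Taf4 KO at 5 weeks) were used, grouped by the genotype and time labels. The authors mapped reads to mm9 with Bowtie 1.0.0, keeping reads placed at 1 site, and called broad peaks with MACS2 2.1.1, per the submitters' processing notes, for each library on its own; duplicate removal, insertion shift and a control are not given in the sources used here. The deposited columns are a fold over local background (a ratio), a -log10 p-value and a -log10 q-value, averaged over each peak by the caller, and a whole-number score made from the q-value by the authors' caller, which was not used. The depth per library is not given in peak lists. A background floor, the 1st percentile of the local background solved from fold and -log10 p, served as an indirect measure of it. In lists simulated with a set floor and the same formulas, the solved floor lay within 0.796% of the set one. This checks the solving step alone, and whether the floor follows depth in the real lists was not tested. Peaks were placed on NCBIM37, the same build as mm9, with GENCODE genes. Promoter windows, ranks within lists, overlaps from 1 bp, GC content and motifs were computed with Python 3.11.15, numpy 2.4.6 and pandas 2.3.3; percentiles are mean ranks. All 10 genes are named, with genes sharing a promoter peak with them and, of the partner lists, those called in some lists only. The genes, lists and tests were chosen with earlier results of these data known. The alternatives tried were stricter q, lists of equal number, KO lists scaled to the WT background, other promoter windows, other ranks, no flank and reciprocal overlap.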

Additional observations from a re-analysis of the deposited data

Results flagged for a closer look

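The promoter peaks of 3 genes stood on opposite sides of WT at the 2 times, as percentile points among the promoter peaks of each list, with 1 library per time, so the difference between times was not tested. Taf4b, the Taf4 paralog, stood 5.88 points higher at 1 week and -0.827 points from WT at 5 weeks. Taf12, the Taf4 partner, was -13.3 points from WT at 1 week and 6.33 points higher at 5 weeks. Taf2, the initiator-contacting subunit, was 11.8 points higher at 1 week and -7.03 points from WT at 5 weeks. All 6 differences are smaller than the 25 points used for counting.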

How the results depend on the processing

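No paired analysis was possible because each group held 1 library. Of 157 values recomputed under alternatives, 91 stayed within the limits set for a change and 66 moved, and none has a replicate spread behind it. The number of the 10 genes with a promoter peak at 1 week minus WT was -2. It was -4 with only peaks of -log10 q 3 or higher (the looser limit) or 5 or higher (the stricter limit). With lists of equal number or KO lists scaled to the WT background it was also -4. The share of all genes with a promoter peak at 1 week was 55.9%, and 44.9%, 33.5%, 48.8% and 49.1% under those settings in that order. In WT it was 59.0%, and 53.8%, 48.6%, 59.0% and 59.0%. The median percentile of the promoter peaks, in the order WT, 1 week and 5 weeks, was 86.9, 90.7 and 90.2. It was 77.6, 76.7 and 75.8 under the looser limit, 66.9, 57.2 and 65.0 under the stricter limit, 59.4, 63.2 and 56.6 among promoter peaks, and 84.2, 91.9 and 91.1 ranked by fold. At 1 and 5 weeks it was 83.2 and 75.6 with lists of equal number and 83.7 and 71.3 scaled to the WT background, and in WT it was 88.8 with the window from 2000 bp upstream to 500 bp downstream. At 1 week the median covers only the genes called. These were 6 under the looser and stricter limits, with equal lists or scaled, and 8 otherwise, against 10 in WT. The percentile of the Taf4 promoter in WT and at 5 weeks was 59.3 and 53.5 under the looser limit, 40.0 and 32.5 under the stricter limit, 38.6 and 33.4 among promoter peaks, and 53.5 and 76.6 by fold, and at 5 weeks 52.9 with equal lists and 44.8 scaled. At 1 week it was 1.19 among promoter peaks and 18.9 by fold. Genes standing at least 25 points lower numbered 2 at 1 week and 0 at 5 weeks among all peaks. They numbered 1 and 1 under the looser limit and 2 and 1 under the stricter limit. With equal lists they numbered 0 and 2, scaled 0 and 3, and among promoter peaks 1 and 1. Taf4 and Taf6, the 2 at 1 week, had no promoter peak there under either limit, with equal lists or scaled. Those counts at 1 week therefore leave them out, and the genes counted there under either limit are others of the 10. Peaks over the loci at 1 week numbered 21 and 15 under the looser and stricter limits, and 24 with equal lists or scaled, while in WT they numbered 22 and at 5 weeks 26 under the stricter limit, and at 5 weeks 29 scaled. Intragenic peaks in WT, at 1 week and at 5 weeks numbered 7, 9 and 8 under the looser limit and 4, 7 and 7 under the stricter limit. In the KO lists they numbered 9 and 8 with equal lists and 9 and 7 scaled. Intragenic peaks of Taf4 numbered 2 and 1 in WT under the looser and stricter limits, and 3 at 5 weeks under the stricter limit or scaled. WT peaks overlapped at 1 week numbered 16 and 13 under the looser and stricter limits, and at 5 weeks 21 under the stricter limit. Apart from settings that drop weak peaks by construction, the cause of these differences was not tested. The lists hold no reads, so a start with no peak may be accessible below the calling threshold.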
